A study of Homo sapiens with 32 samples.

Results

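The 9 antiproliferative genes described here were followed across the treatments: the BTG family members BTG1, BTG2, BTG3 and TOB1, the growth arrest genes GADD45A, GADD45B and GADD45G, and the cyclin G genes CCNG1 and CCNG2. They were taken by symbol, and 10 of the 24526 probes carried 1 of the 9 symbols, out of 18402 symbols in all. Messenger RNA was measured on 32 one-colour bead arrays, 4 in each of 8 groups, from 2 human cell lines, Huh7, given in the labels as an HCC (hepatocellular carcinoma) line, and HepG2, given as an HB line and known as a hepatoblastoma line. The groups were Huh7 with SAHA or DMSO, HepG2 with SAHA or DMSO, Huh7 with HDAC2 siRNA or scrambled siRNA, and HepG2 with HDAC2 siRNA or scrambled siRNA. SAHA (vorinostat) inhibits histone deacetylases of several classes, while the siRNA targets the transcript of 1 of them, HDAC2. Each group is 1 cell line under 1 condition. The sources used here give no dose, time or siRNA sequence, and do not say that replicate arrays are separate cultures, so p-values measure only array-to-array spread, which may be technical.

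BTG and TOB proteins slow the cell cycle in part by bringing the CCR4-NOT deadenylase to messenger RNAs, which shortens their poly(A) tails; BTG1 and BTG2 also bind the arginine methyltransferase PRMT1. GADD45 proteins are small stress-induced proteins that bind PCNA, the p21 protein and the CDK1-cyclin B1 complex, and that activate the kinase MAP3K4 upstream of p38 and JNK. The cyclin G proteins are atypical cyclins: CCNG1 recruits protein phosphatase 2A to MDM2, and CCNG2 is repressed by growth factor signalling and activated by FOXO factors.

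Promoter windows of 300 bases (250 before and 50 after the start site) were available from RefSeq for 8 of the 9 genes, with 10 windows in all, since TOB1 and CCNG1 each have a pair of start sites. The windows of BTG1, BTG2 and CCNG2 are printed because these genes held the widest treatment changes among the 8, and that of GADD45B because its level differed most between the lines. Build GRCh38.p14 places them at chr12:92145797-92146096 (minus strand, BTG1), chr1:203305269-203305568 (plus strand, BTG2), chr4:77156957-77157256 (plus strand, CCNG2) and chr19:2475877-2476176 (plus strand, GADD45B). Capitals mark matches on either strand to the GC box GGGCGG, the CCAAT box, the TATA box TATAAA, the FOXO motif GTAAACA and the E-box CACGTG, none of which overlap each other in these windows.
BTG1: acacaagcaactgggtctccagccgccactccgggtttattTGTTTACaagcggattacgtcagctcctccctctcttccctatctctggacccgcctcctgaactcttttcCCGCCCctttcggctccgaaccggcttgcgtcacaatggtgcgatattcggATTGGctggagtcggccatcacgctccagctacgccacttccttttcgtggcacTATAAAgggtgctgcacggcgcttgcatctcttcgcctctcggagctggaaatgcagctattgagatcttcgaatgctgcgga
BTG2: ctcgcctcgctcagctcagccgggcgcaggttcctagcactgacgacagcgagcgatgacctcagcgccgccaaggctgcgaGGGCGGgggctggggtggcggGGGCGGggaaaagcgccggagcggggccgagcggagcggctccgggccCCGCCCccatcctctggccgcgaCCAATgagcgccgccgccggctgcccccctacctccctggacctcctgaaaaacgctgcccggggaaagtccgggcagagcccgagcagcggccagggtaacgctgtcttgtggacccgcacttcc
CCNG2: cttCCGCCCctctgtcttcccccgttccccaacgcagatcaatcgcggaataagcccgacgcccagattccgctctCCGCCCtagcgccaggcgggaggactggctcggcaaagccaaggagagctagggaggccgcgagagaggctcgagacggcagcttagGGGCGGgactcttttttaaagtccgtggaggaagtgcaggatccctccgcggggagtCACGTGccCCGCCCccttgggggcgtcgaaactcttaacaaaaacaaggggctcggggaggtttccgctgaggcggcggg
GADD45B: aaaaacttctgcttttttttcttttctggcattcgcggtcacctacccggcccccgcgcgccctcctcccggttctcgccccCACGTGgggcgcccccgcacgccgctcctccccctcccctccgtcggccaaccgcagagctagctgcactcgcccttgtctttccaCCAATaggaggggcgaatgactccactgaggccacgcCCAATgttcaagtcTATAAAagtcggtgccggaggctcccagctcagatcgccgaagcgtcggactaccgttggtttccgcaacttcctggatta

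The BTG1 window held a match to the FOXO motif at position -209 from the start site and a TATA box at -33. Matches to the FOXO motif occurred in 3.42% of the 35116 RefSeq windows, the TATA box in 11.5%, the CCAAT box in 34.6%, the E-box in 7.26% and the GC box in 45.0%. The BTG2 window carried the GC box 3 times and the CCAAT box once, and the CCNG2 window the GC box 4 times and the E-box once. GADD45B had a TATA box at -31, a CCAAT box in 2 places and an E-box. Of the other windows, GADD45G carried an E-box and a CCAAT box, either CCNG1 window the CCAAT box 4 times and the GC box once, BTG3 the GC box 3 times, and 1 of the TOB1 windows the GC box 3 times and the CCAAT box once. The cAMP response element TGACGTCA was searched as well, on both strands; none of the 10 windows held it, and it occurred in 1.85% of all windows. The base composition ranged between 41.3% and 78.7% G or C. A match describes the letters of the window only.

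Signals are given on the log2 scale after background correction and joint quantile normalization of the 32 arrays, and a change is the mean of the 4 treated arrays minus that of their 4 controls, with its standard error (SE). A gene was called where the limma test gave an adjusted p under 0.05, with Benjamini-Hochberg adjustment across the 12973 genes of the table. Levels of different probes are not compared with one another. Each array detected 48.3% to 54.9% of its probes, and arrays of a group correlated at 0.979 or more; the number of arrays limits the precision of every value. Correlations under 0.987 occurred only in HepG2 with HDAC2 siRNA. The test used 1 spread per gene for all 8 groups, so a noisier group is given the same SE as a quieter one. All 9 genes were tested, each through 1 probe; the second CCNG1 probe was detected on 1 of 32 arrays and was not tested. Of the tested probes, 8 were detected on all 32 arrays and GADD45G on 17. The siRNA target checked the labels: HDAC2 averaged 8.73 ± 0.10 with HDAC2 siRNA and 12.07 ± 0.04 with scrambled siRNA in Huh7, and 7.92 ± 0.23 with HDAC2 siRNA and 10.97 ± 0.14 with scrambled siRNA in HepG2 (SD, n = 4 each). Of 14 hepatocyte markers, 11 to 14 were detected on all 4 arrays of each group, ALB and AFP on all 32 arrays. In these whole-culture samples, fewer cells of a kind and less RNA per cell cannot be told apart.

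**Figure D1:**
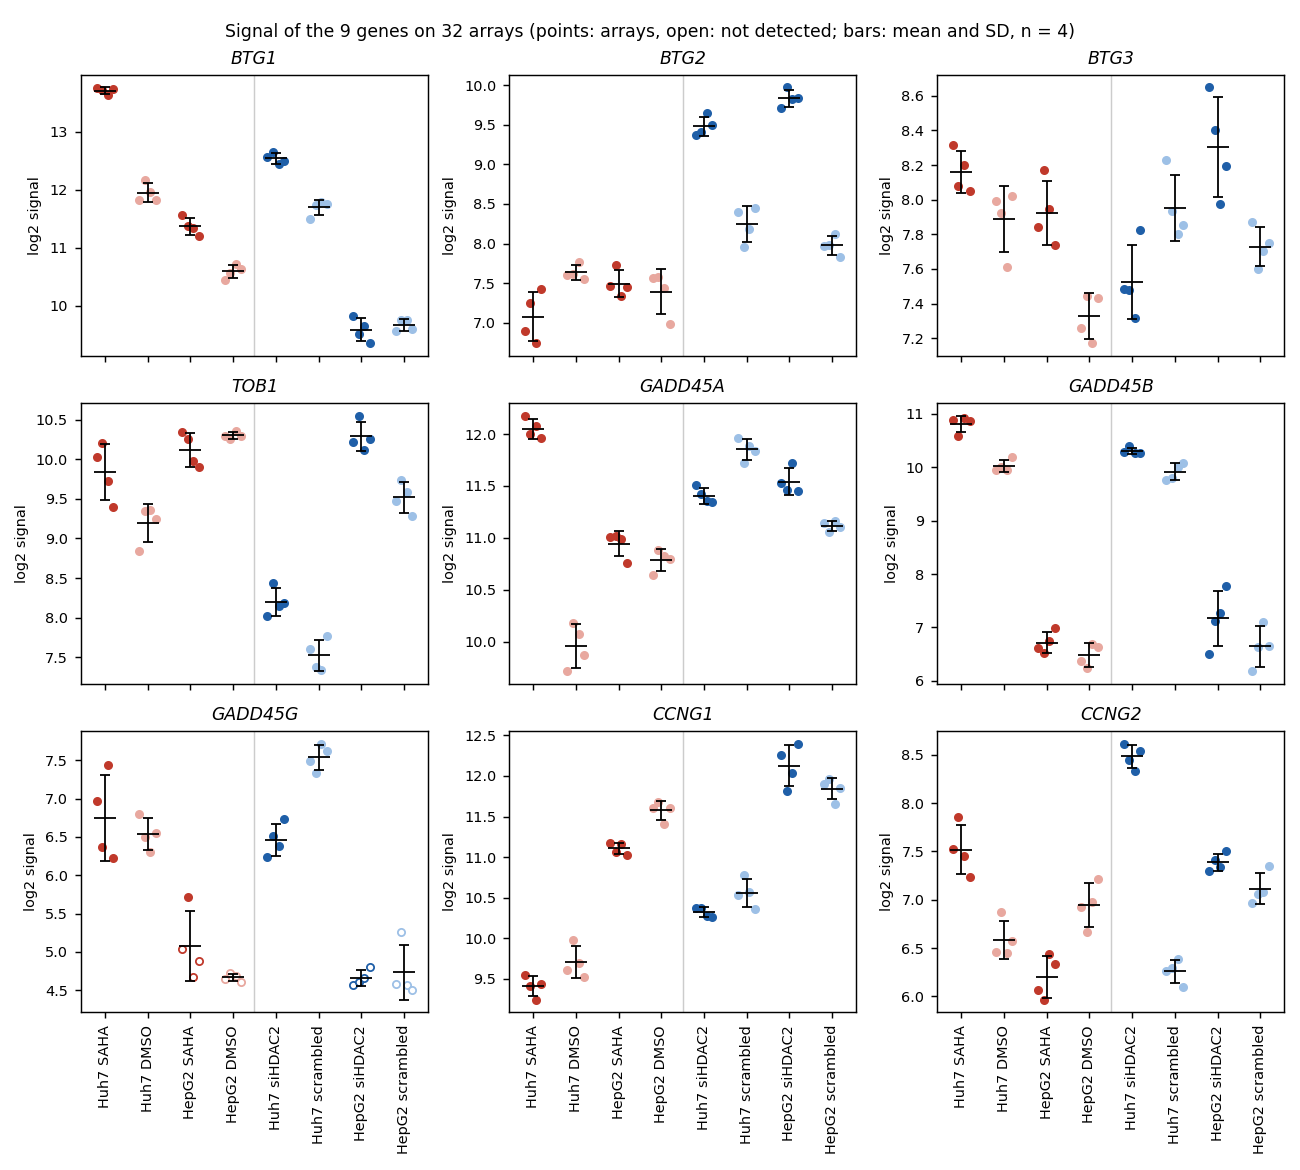
Log2 signal (vertical axis) of the 9 genes on each array of the 8 groups (horizontal axis), with the mean and SD of 4 arrays; filled points are detected arrays and open points undetected ones. BTG1 stood highest in Huh7 with SAHA, near 13.70, BTG2 highest in both groups with HDAC2 siRNA, and GADD45B lay above 9.7 in every Huh7 array and below 7.8 in every HepG2 array.

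Each comparison called a different subset of the 9 genes. With SAHA in Huh7, 5 genes rose and 2 fell, beside 60.6% of all genes called (31.6% higher and 29.1% lower). With SAHA in HepG2, 2 rose and 2 fell, beside 54.5% (27% higher and 27.6% lower). With HDAC2 siRNA in Huh7, 4 rose and 3 fell, beside 45.3% (22.9% higher and 22.4% lower), and with HDAC2 siRNA in HepG2, 6 rose and 0 fell, beside 36.6% (18.8% higher and 17.8% lower). The 3 genes of 9 not called there had unadjusted p-values of 0.430 (BTG1), 0.736 (GADD45G) and 0.0431 (CCNG2). The median change of the 9 genes was 0.64 and 0.16 with SAHA in Huh7 and HepG2, and 0.39 and 0.42 with HDAC2 siRNA in Huh7 and HepG2, while the median of all genes lay between -0.01 and 0.01. No member was called in all 4 comparisons, beside 10.9% of all genes; 0 of 9 were called higher in all 4 and 0 lower, beside 1.86% and 2.17% of all genes. With SAHA, BTG1 rose and CCNG1 fell in both lines, beside 14.9% of all genes higher in both and 14.9% lower in both. With HDAC2 siRNA, BTG2 and TOB1 rose in both lines and 0 of the 9 fell in both, beside 7.11% higher in both and 7.64% lower in both. The arrays of the groups did not overlap for 7, 4, 7 and 4 of the 9 genes in that order of comparisons, beside 55%, 52.3%, 46% and 26.5% of all genes.

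**Figure D2:**
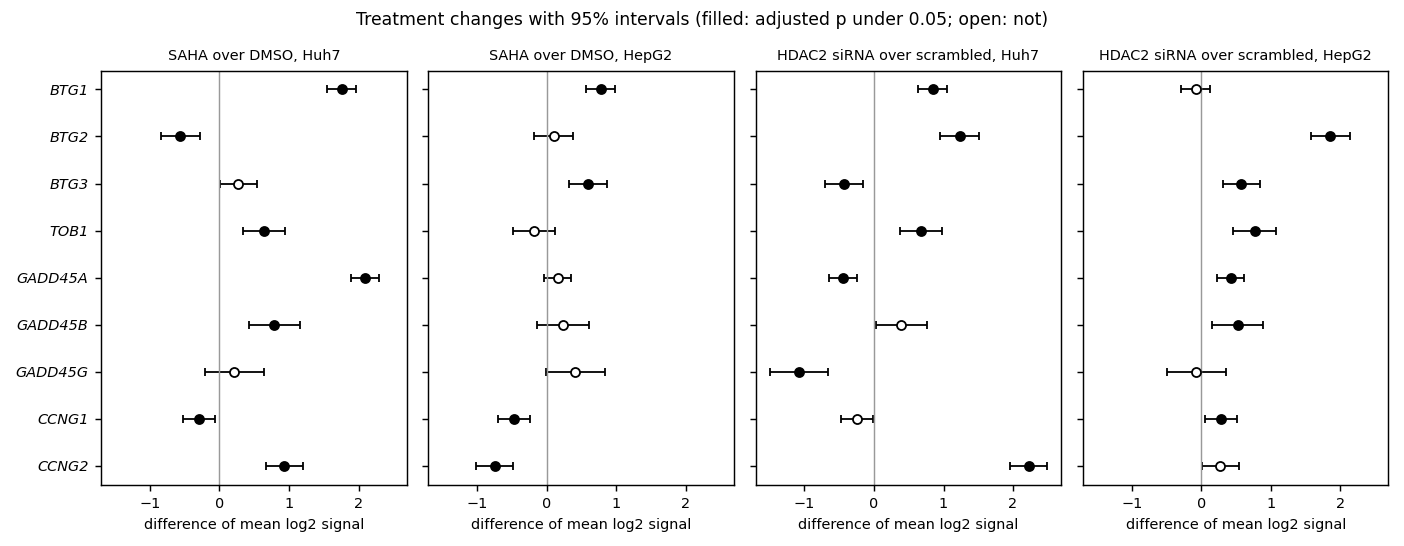
Difference of mean log2 signal (horizontal axis) with its 95% interval for the 9 genes (rows) in the 4 treatment comparisons, filled where the limma adjusted p was under 0.05. GADD45A with SAHA and CCNG2 with HDAC2 siRNA, both in Huh7, lie beyond 2, whereas BTG2 stands on the right with HDAC2 siRNA in both lines and at or left of 0.10 with SAHA.

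BTG1, a BTG gene known for expression in resting cells, rose in 3 of the 4 comparisons. In Huh7 its log2 signal was 13.75, 13.72, 13.62 and 13.73 with SAHA, against 11.82, 12.17, 11.97 and 11.82 with DMSO. The groups lay far apart, and the change of 1.76 was 3.39-fold (SE 0.10, limma adjusted p = 1.48e-15). HepG2 gave 11.56, 11.38, 11.34 and 11.21 with SAHA, against 10.45, 10.57, 10.73 and 10.64 with DMSO, again without overlap, a change of 0.78 (SE 0.10, limma adjusted p = 1.15e-07) that was 0.43 when each array was scaled to one median. Huh7 had 12.56, 12.66, 12.45 and 12.49 with HDAC2 siRNA, against 11.50, 11.74, 11.79 and 11.75 with scrambled siRNA. All 4 siRNA arrays were higher, by 0.84 on average (SE 0.10, limma adjusted p = 4.52e-08). In HepG2 the arrays mixed, with 9.84, 9.52, 9.66 and 9.36 for HDAC2 siRNA and 9.58, 9.77, 9.76 and 9.61 for scrambled siRNA, a difference of -0.08 (95% interval -0.29 to 0.13, limma adjusted p = 0.578). BTG1 thus differed between the lines with either treatment: the HepG2 change minus the Huh7 change was -0.98 for SAHA (SE 0.14, limma adjusted p = 1.09e-06) and -0.92 for HDAC2 siRNA (SE 0.14, limma adjusted p = 7.12e-06).

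BTG2, whose protein also engages CCR4-NOT, rose with HDAC2 siRNA and not with SAHA. HepG2 read 9.71, 9.97, 9.82 and 9.84 with HDAC2 siRNA, against 7.98, 7.98, 8.12 and 7.82 with scrambled siRNA. This gap of 1.86 (3.63-fold, SE 0.14, limma adjusted p = 5.69e-12) ranked 10 from the top of 12973 genes. In Huh7 BTG2 read 9.37, 9.41, 9.64 and 9.50 with HDAC2 siRNA, against 8.40, 7.96, 8.18 and 8.45 with scrambled siRNA, a change of 1.23 without overlap (SE 0.14, limma adjusted p = 8e-09). With SAHA the direction in Huh7 was down: 6.89, 7.24, 6.74 and 7.42 with SAHA, against 7.60, 7.62, 7.77 and 7.56 with DMSO. BTG2 fell by 0.56 there (SE 0.14, limma adjusted p = 0.000683), every SAHA array below every DMSO array; without background correction the change was -0.31. In HepG2 it gave 7.46, 7.73, 7.34 and 7.45 with SAHA and 7.57, 7.57, 7.44 and 6.98 with DMSO, which overlap (difference 0.10, 95% interval -0.18 to 0.38, limma adjusted p = 0.56). The SAHA change minus the siRNA change was -1.80 in Huh7 (SE 0.19, limma adjusted p = 2.76e-09) and -1.75 in HepG2 (SE 0.19, limma adjusted p = 6.42e-09). Between lines, the HepG2 change exceeded the Huh7 change by 0.66 for SAHA (limma adjusted p = 0.00472) and by 0.62 for HDAC2 siRNA (limma adjusted p = 0.0114).

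BTG3, another member of the family, moved less and in opposite directions with HDAC2 siRNA in the 2 lines. Its log2 signal was 8.65, 8.40, 7.97 and 8.20 with HDAC2 siRNA in HepG2, against 7.87, 7.60, 7.70 and 7.75 with scrambled siRNA, a rise of 0.58 (SE 0.13, limma adjusted p = 0.000897). Huh7 had 7.48, 7.48, 7.31 and 7.82 with HDAC2 siRNA, against 8.23, 7.93, 7.80 and 7.85 with scrambled siRNA. One array of each Huh7 group overlapped the other group; the fall of 0.43 (SE 0.13) was called at a limma adjusted p of 0.00822, and at 0.0651 it was not when each array was scaled to one median. The difference between the lines was 1.01 (SE 0.19, limma adjusted p = 7.73e-05). With SAHA, HepG2 averaged 7.92 ± 0.18 and its DMSO arrays 7.33 ± 0.13 (SD, n = 4 each), a rise of 0.60 (limma adjusted p = 0.000286) that became 0.27 under median scaling (limma adjusted p = 0.135). Huh7 averaged 8.16 ± 0.12 with SAHA and 7.89 ± 0.19 with DMSO (limma adjusted p = 0.0765), not called.

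TOB1, whose protein joins CCR4-NOT to the poly(A)-binding protein, rose with HDAC2 siRNA in both lines by similar amounts. In Huh7 it gave 8.02, 8.43, 8.15 and 8.19 with HDAC2 siRNA, against 7.61, 7.37, 7.34 and 7.76 with scrambled siRNA (change 0.68, SE 0.15, limma adjusted p = 0.000384). HepG2 had 10.22, 10.55, 10.12 and 10.26 with HDAC2 siRNA, against 9.48, 9.74, 9.59 and 9.28 with scrambled siRNA (change 0.77, SE 0.15, limma adjusted p = 0.000144). Neither pair of groups overlapped, and the changes differed by 0.09 with a 95% interval of -0.34 to 0.53. SAHA gave 10.03, 10.20, 9.73 and 9.39 in Huh7, against 8.84, 9.35, 9.36 and 9.24 with DMSO, a rise of 0.64 (SE 0.15, limma adjusted p = 0.000427). In HepG2, SAHA arrays averaged 10.12 ± 0.22 and DMSO arrays 10.30 ± 0.04 (SD, n = 4 each, limma adjusted p = 0.317). Median scaling changed both SAHA calls, to 0.28 in Huh7 (limma adjusted p = 0.151) and to -0.58 in HepG2 (limma adjusted p = 0.00281). The line difference of the SAHA change was -0.83 (SE 0.21, limma adjusted p = 0.00154).

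GADD45A, induced by DNA damage, had the largest SAHA change of the 9 genes. In Huh7 its log2 signal was 12.18, 12.00, 12.08 and 11.96 with SAHA, against 9.71, 10.18, 10.08 and 9.87 with DMSO. The change of 2.09 was 4.27-fold (SE 0.10, limma adjusted p = 4.41e-18), with no overlap. The same drug gave 11.01, 11.02, 10.99 and 10.76 in HepG2, against 10.64, 10.89, 10.83 and 10.80 with DMSO, which overlap (difference 0.16, 95% interval -0.04 to 0.35, limma adjusted p = 0.178). HDAC2 siRNA moved the gene in opposite directions. Huh7 read 11.51, 11.43, 11.35 and 11.34 with HDAC2 siRNA, against 11.96, 11.73, 11.88 and 11.84 with scrambled siRNA, so GADD45A fell by 0.44 (SE 0.10, limma adjusted p = 0.000271). HepG2 read 11.53, 11.46, 11.73 and 11.45 with HDAC2 siRNA, against 11.15, 11.05, 11.16 and 11.11 with scrambled siRNA, a rise of 0.42 (SE 0.10, limma adjusted p = 0.000727). No arrays overlapped in either siRNA comparison. HepG2 minus Huh7, the changes differed by -1.94 for SAHA (SE 0.14, limma adjusted p = 3.26e-13) and by 0.87 for HDAC2 siRNA (SE 0.14, limma adjusted p = 6.49e-06).

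GADD45B, induced by stress and TGF-beta signalling, differed above all by cell line. In Huh7 it read 10.88, 10.59, 10.92 and 10.87 with SAHA, against 9.95, 10.00, 9.96 and 10.20 with DMSO, a rise of 0.79 (SE 0.18, limma adjusted p = 0.000316). Under median scaling that change was 0.41 (limma adjusted p = 0.071). HDAC2 siRNA in Huh7 gave 10.29, 10.39, 10.26 and 10.27, against 9.76, 9.80, 10.01 and 10.08 with scrambled siRNA. Those arrays did not overlap, yet the difference of 0.39 (SE 0.18) missed the threshold in the common fit (limma adjusted p = 0.0787) and passed it when only these 2 groups were fitted (limma adjusted p = 0.00555). In HepG2 the signal was low and scattered: 6.51, 7.12, 7.26 and 7.78 with HDAC2 siRNA, against 6.18, 6.64, 7.11 and 6.64 with scrambled siRNA. The rise of 0.52 (SE 0.18, limma adjusted p = 0.0219) had overlapping arrays; it was 0.32 without HDAC2 siRNA replicate 4 (limma adjusted p = 0.152), 0.49 without HDAC2 siRNA replicate 3 (limma adjusted p = 0.0534) and 0.37 without scrambled siRNA replicate 1 (limma adjusted p = 0.122), and with only the groups compared the limma adjusted p was 0.181. SAHA in HepG2 averaged 6.72 ± 0.20 and DMSO 6.48 ± 0.22 (SD, n = 4 each, limma adjusted p = 0.29).

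GADD45G, a stress gene known to be silenced by promoter methylation in tumours, was read above background almost only in Huh7. It was detected on all 16 Huh7 arrays, on 1 of the 4 HepG2 arrays with SAHA and on none of the 12 other HepG2 arrays. In Huh7 the log2 signal was 6.23, 6.52, 6.38 and 6.73 with HDAC2 siRNA, against 7.49, 7.34, 7.72 and 7.62 with scrambled siRNA. GADD45G fell by 1.08 (SE 0.21, limma adjusted p = 6.62e-05), which left 47.4% of the scrambled siRNA level, and no array overlapped; without background correction the change was -0.54. SAHA arrays of Huh7 scattered over 6.97, 6.37, 7.45 and 6.22, against 6.80, 6.50, 6.30 and 6.55 with DMSO (difference 0.21, 95% interval -0.21 to 0.64, limma adjusted p = 0.393). In HepG2 the 4 SAHA arrays averaged 5.08 ± 0.45 and the DMSO arrays 4.67 ± 0.05 (SD, n = 4 each), near or not above background, with a limma adjusted p of 0.0936 that was 0.0345 without SAHA replicate 3. Both p-values rest on signals near background. With signals under the lowest detected signal of their array raised to it, the difference was -0.008. The probe was not well above background in either siRNA group of HepG2, so no fold is given there.

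CCNG1 changed little. In HepG2 it read 11.18, 11.07, 11.16 and 11.02 with SAHA, against 11.61, 11.68, 11.41 and 11.60 with DMSO, and fell by 0.47 without overlap (SE 0.11, limma adjusted p = 0.000754). Median scaling put that change at -0.80 and the one in Huh7 at -0.68. Huh7 read 9.54, 9.42, 9.25 and 9.44 with SAHA, against 9.61, 9.98, 9.70 and 9.53 with DMSO. Here 1 array of each group crossed, and the fall of 0.29 (SE 0.11, limma adjusted p = 0.0262) was 0.20 without DMSO replicate 2 (limma adjusted p = 0.14), with a limma adjusted p of 0.0949 without SAHA replicate 3 and of 0.0559 with only the groups compared. HepG2 averaged 12.13 ± 0.25 with HDAC2 siRNA and 11.84 ± 0.13 with scrambled siRNA (SD, n = 4 each), a rise of 0.28 at a limma adjusted p of 0.0498; 11 of 19 alternatives put that p above the threshold, up to 0.212 without HDAC2 siRNA replicate 4, where the change was 0.19. Huh7 averaged 10.32 ± 0.06 with HDAC2 siRNA and 10.56 ± 0.17 with scrambled siRNA (limma adjusted p = 0.087), and 0.0284 under median scaling. The line difference of the siRNA change was 0.52 (SE 0.16, limma adjusted p = 0.0103).

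CCNG2, the FOXO-activated cyclin, had the largest siRNA change of the 9 genes. In Huh7 it read 8.61, 8.45, 8.34 and 8.54 with HDAC2 siRNA, against 6.26, 6.30, 6.38 and 6.10 with scrambled siRNA. This rise of 2.23 was 4.68-fold (SE 0.13, limma adjusted p = 9.53e-15) and ranked 34 from the top of all genes; without background correction it was 1.24. HepG2 gave 7.30, 7.41, 7.34 and 7.51 with HDAC2 siRNA, against 6.97, 7.06, 7.08 and 7.34 with scrambled siRNA, which overlap (difference 0.28, 95% interval 0.01 to 0.54, limma adjusted p = 0.1; 0.0489 without scrambled siRNA replicate 4). SAHA moved CCNG2 in opposite directions in the lines, without overlap in either. Huh7 read 7.53, 7.86, 7.46 and 7.24 with SAHA, against 6.46, 6.87, 6.45 and 6.57 with DMSO, a rise of 0.93 (SE 0.13, limma adjusted p = 2.45e-07). HepG2 read 6.07, 5.97, 6.43 and 6.33 with SAHA, against 6.93, 6.66, 6.97 and 7.22 with DMSO, and fell by 0.74 (SE 0.13, limma adjusted p = 1.22e-05). Without background correction the SAHA changes were 0.47 in Huh7 and -0.32 in HepG2. The HepG2 change minus the Huh7 change was -1.68 for SAHA (SE 0.18, limma adjusted p = 5.46e-09) and -1.95 for HDAC2 siRNA (SE 0.18, limma adjusted p = 1.23e-09), against -0.79 and -1.10 without background correction.

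Tests of the difference between the lines called 5 of the 9 genes for SAHA, beside 52.2% of all genes (24.1% higher and 28.1% lower in HepG2), and 7 for HDAC2 siRNA, beside 37.2% (18.8% higher and 18.4% lower). BTG1, BTG2, GADD45A and CCNG2 were called in both tests. For SAHA the change was lower in HepG2 for BTG1, TOB1, GADD45A and CCNG2 and higher for BTG2; GADD45B gave -0.56 (95% interval -1.08 to -0.04, limma adjusted p = 0.0669), BTG3 0.32 (-0.06 to 0.71), GADD45G 0.20 (-0.40 to 0.80) and CCNG1 -0.18 (-0.50 to 0.15). For HDAC2 siRNA, TOB1 and GADD45B were not called; GADD45B gave 0.13 (95% interval -0.39 to 0.65). The called GADD45G value of 1.01 (limma adjusted p = 0.00693) sets a fall in Huh7 against HepG2 groups in which the probe was not well above background. Genes called in opposite directions in the lines were 1 of 9 with SAHA (CCNG2), beside 8.08% of all genes, and 2 of 9 with HDAC2 siRNA (BTG3 and GADD45A), beside 5.67%.

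The SAHA and siRNA changes, which have separate controls, differed within a line for 6 of the 9 genes in Huh7, beside 54.8% of all genes (29% higher and 25.7% lower), and for 5 in HepG2, beside 48.7% (24.2% higher and 24.5% lower). In Huh7 the SAHA change was larger for GADD45A by 2.54 (SE 0.14, limma adjusted p = 4.6e-16), for GADD45G by 1.29 (SE 0.29, limma adjusted p = 0.000375), for BTG1 by 0.92 (SE 0.14, limma adjusted p = 2.7e-06) and for BTG3 by 0.70 (SE 0.19, limma adjusted p = 0.00198). The BTG3 value was 0.37 under median scaling (limma adjusted p = 0.155). CCNG2 gave -1.29 in Huh7 (SE 0.18, limma adjusted p = 5.05e-07) and -1.02 in HepG2 (SE 0.18, limma adjusted p = 2.71e-05). TOB1 gave -0.03 in Huh7 (95% interval -0.47 to 0.40) and -0.95 in HepG2 (SE 0.21, limma adjusted p = 0.000368), and CCNG1 -0.05 in Huh7 (95% interval -0.38 to 0.27) and -0.75 in HepG2 (SE 0.16, limma adjusted p = 0.000232). In HepG2, BTG1 was the 1 gene with the larger SAHA change, by 0.86 (SE 0.14, limma adjusted p = 1.03e-05), or by 0.44 under median scaling (limma adjusted p = 0.0466), and GADD45A gave -0.27 (95% interval -0.55 to 0.01), called at -0.78 under median scaling (limma adjusted p = 0.000347).

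The control arrays showed how the lines differ at the outset. Of the 9 genes, 8 were called between HepG2 and Huh7 with DMSO, beside 60% of all genes (30% higher and 29.9% lower in HepG2), and 7 with scrambled siRNA, beside 66.2% (31.4% higher and 34.9% lower). GADD45B was lower in HepG2, with a log2 difference of -3.54 with DMSO (limma adjusted p = 3.53e-17) and -3.27 with scrambled siRNA (limma adjusted p = 2.12e-16). Alternative runs put this difference between -3.80 and -2.42 with DMSO and between -3.50 and -2.24 with scrambled siRNA. GADD45G was at least 2.20-fold lower in HepG2 with DMSO and at least 4.26-fold lower with scrambled siRNA, bounds set by the lowest detected signal of each HepG2 array. Its probe passed the detection filter through the Huh7 arrays, and no HepG2 control array detected it. Its call in both counts above is thus not independent of the filter. BTG1 was lower in HepG2 too (-1.35 with DMSO and -2.02 with scrambled siRNA), while CCNG1 (1.87 and 1.28) and TOB1 (1.11 and 2.00) were higher in HepG2 in both. GADD45A was called in opposite directions, 0.83 higher in HepG2 with DMSO (limma adjusted p = 6.75e-09) and lower with scrambled siRNA (log2 difference -0.73, limma adjusted p = 5.65e-08). CCNG2 was higher in HepG2 by 0.36 with DMSO (limma adjusted p = 0.0184, with overlapping arrays) and by 0.85 with scrambled siRNA. Leaving out 1 DMSO array (HepG2 replicate 4, or Huh7 replicate 1 or 3) brought that DMSO value to 0.27 to 0.32 and its limma adjusted p to between 0.0574 and 0.095. BTG2 differed by -0.24 and -0.27 (limma adjusted p = 0.126 and 0.0858), and BTG3 by -0.56 with DMSO (limma adjusted p = 0.00051) and -0.23 with scrambled siRNA (limma adjusted p = 0.137).

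The 2 control groups of a line also differed. Scrambled siRNA against DMSO called 7 of the 9 genes in Huh7, beside 44% of all genes (22.9% higher and 21.1% lower), and 5 in HepG2, beside 45% (23% higher and 22.1% lower); solvent, transfection and any difference in culture or processing between the SAHA and siRNA arrays cannot be told apart here. GADD45A in Huh7 was 1.89 higher with scrambled siRNA (11.85 ± 0.10) than with DMSO (9.96 ± 0.21; SD, n = 4 each, limma adjusted p = 3.55e-16), the 48th largest rise of all genes. TOB1 was lower with scrambled siRNA in both lines, with differences of -1.68 in Huh7 (limma adjusted p = 1.24e-10) and -0.78 in HepG2 (limma adjusted p = 6.9e-05). BTG2 was higher with scrambled siRNA in both, by 0.61 in Huh7 and 0.58 in HepG2. GADD45G (1.00) and CCNG1 (0.86) were higher in Huh7, BTG3 (0.40) and GADD45A (0.33) in HepG2, and BTG1 was lower in HepG2 (-0.92). The 2 other Huh7 calls, BTG1 at -0.25 and CCNG2 at -0.33, had limma adjusted p-values of 0.0486 and 0.0415 and were lost in 9 of 18 and 8 of 18 alternatives. In HepG2, BTG3 and GADD45A were not called under median scaling (limma adjusted p = 0.0817 and 0.323). These values share their control arrays with the treatment comparisons. The SAHA level of GADD45A in Huh7, 12.05 ± 0.10, stood beside 11.85 ± 0.10 with scrambled siRNA. The lowest SAHA array and the highest scrambled siRNA array were equal at 11.96.

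**Figure D3:**
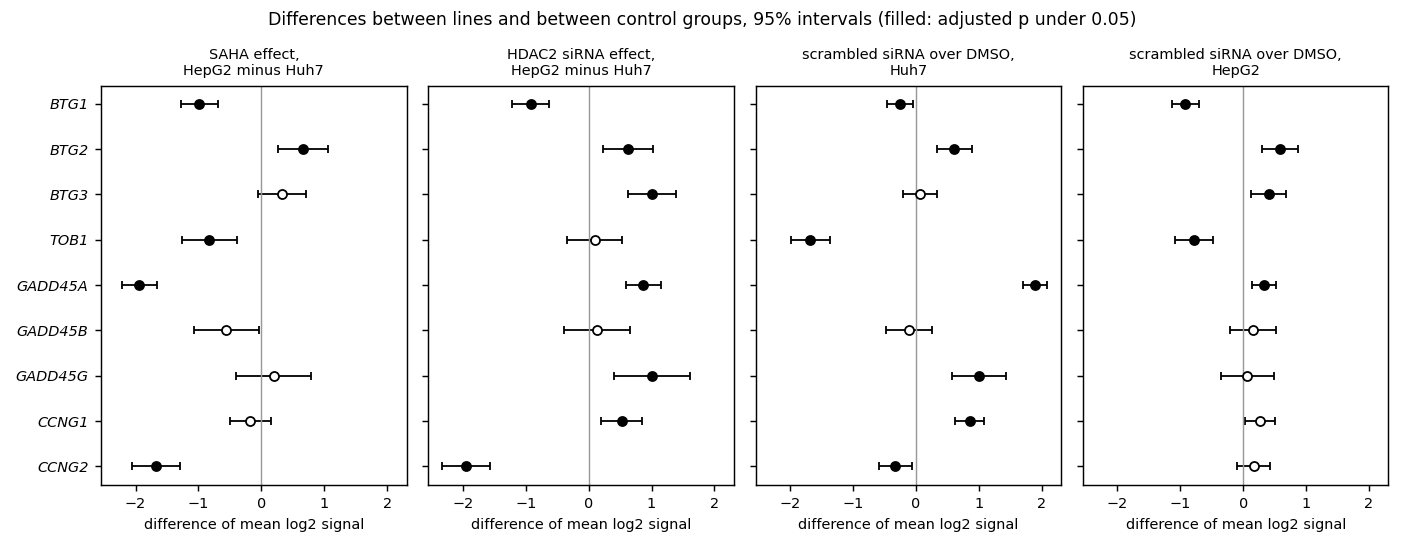
Differences of mean log2 signal (horizontal axis) with 95% intervals for the 9 genes (rows): the line difference of each treatment change in the left pair of panels, scrambled siRNA over DMSO in the right pair, filled where the limma adjusted p was under 0.05. GADD45A lies near -1.94 in the first panel and near 1.89 in the third, CCNG2 left of -1.5 in both line panels.

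The order of the 8 groups by mean signal differed among the genes. For BTG1 all 4 Huh7 groups stood above all 4 HepG2 groups, with Huh7 SAHA first (13.70) and HepG2 HDAC2 siRNA last (9.60, overlapping HepG2 scrambled siRNA at 9.68). GADD45B and GADD45G had the Huh7 groups on top as well, and CCNG1 the HepG2 groups. For BTG2 the order followed the experiment: both HDAC2 siRNA groups, then both scrambled siRNA groups, then the 4 groups of the SAHA experiment, each of which overlapped its neighbour. BTG3 had the narrowest span, 0.98 between its lowest and highest group means, and every neighbouring pair overlapped. GADD45B had the widest, 4.33. GADD45A was highest in Huh7 with SAHA and lowest in Huh7 with DMSO, and TOB1 was highest in HepG2 with DMSO, where it overlapped HepG2 with HDAC2 siRNA, and lowest in Huh7 with scrambled siRNA. CCNG2 ran between 8.49 in Huh7 with HDAC2 siRNA and 6.20 in HepG2 with SAHA, which overlapped Huh7 scrambled siRNA at 6.26.

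By Pearson r over the 32 arrays, the genes with the most similar profiles were PNPLA6 for BTG1 (r = 0.976), GNPDA1 for BTG2 (0.907), PEX16 for BTG3 (0.812) and CNN3 for TOB1 (0.949). They were DAGLB for GADD45A (0.846), RND3 for GADD45B (0.984), ARF1 for GADD45G (0.955), DCDC2 for CCNG1 (0.963) and PEPD for CCNG2 (0.837). The next in likeness were FAM89B and GPR108 for BTG1, ZFYVE26 and UBE2Q2 for BTG2, PRKAG2 and ZNRD2 for BTG3, PDXP and TWSG1 for TOB1, ATAD1 and NUDT9 for GADD45A, SRI and LOC339123 for GADD45B, PCDH7 and PSENEN for GADD45G, MRPS22 and KDM2B for CCNG1, and MARF1 and NBPF3 for CCNG2. Arrays of a line or group share their level, so these values largely reflect group means and are a description only.

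Partners and related targets were counted in the same fit. The share of all genes called was 60.6% (31.6% higher, 29.1% lower) with SAHA in Huh7 and 54.5% (27% and 27.6%) with SAHA in HepG2. With HDAC2 siRNA it was 45.3% (22.9% and 22.4%) in Huh7 and 36.6% (18.8% and 17.8%) in HepG2. These shares stand beside every list count below from this fit, and no list was tested against them. Of 18 FOXO factors and targets, 7 rose and 2 fell with SAHA in Huh7, 10 rose and 3 fell with SAHA in HepG2, 8 rose and 2 fell with HDAC2 siRNA in Huh7, and 3 rose and 4 fell with it in HepG2, with medians of 0.14, 0.32, 0.31 and 0.11. Under median scaling the counts with SAHA were 7 up and 5 down in Huh7 (median -0.05) and 6 up and 4 down in HepG2 (median 0.06), and with HDAC2 siRNA 9 up and 2 down in Huh7 (median 0.40) and 3 up and 3 down in HepG2 (median 0.13). FOXO3 itself rose by 1.93 with HDAC2 siRNA in Huh7 (10.54 with HDAC2 siRNA against 8.61 with scrambled siRNA) and by 0.74 in HepG2 (10.92 with HDAC2 siRNA against 10.18 with scrambled siRNA). Others in Huh7 with HDAC2 siRNA were CDKN1B, a kinase inhibitor gene (0.99), and PINK1, a mitochondrial kinase gene (1.37). TXNIP, encoding a thioredoxin-binding arrestin, rose by 4.07 and 2.38 with SAHA in Huh7 and HepG2 and by 1.54 with HDAC2 siRNA in HepG2. BCL6 rose by 1.97 and KLF2 by 2.25 with SAHA in Huh7, PINK1 by 2.07 with SAHA in HepG2, and CITED2 fell by 1.58 with HDAC2 siRNA in HepG2. KLF2 was at least 3.49-fold higher with SAHA in HepG2, where no DMSO array detected it.

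Of 18 CCR4-NOT subunits and BTG partners, 3 rose and 4 fell with SAHA in Huh7, 1 rose and 12 fell with SAHA in HepG2, 4 rose and 5 fell with HDAC2 siRNA in Huh7, and 2 rose and 5 fell with it in HepG2. PRMT1 fell by 1.05 and 1.11 with SAHA in Huh7 and HepG2. The scaffold gene CNOT1 fell by 1.21 with SAHA and by 0.56 with HDAC2 siRNA in HepG2. CNOT8, one of the catalytic subunits that BTG proteins bind, rose by 0.55 with SAHA in Huh7 and fell with HDAC2 siRNA, by 1.08 in Huh7 and 0.83 in HepG2. PABPC4 fell by 0.69 with SAHA in Huh7, CNOT4 by 0.78 with SAHA in HepG2, and the nuclease gene CNOT6 by 0.99 with HDAC2 siRNA in HepG2, while CNOT2 and CNOT3 each rose by 0.84 with HDAC2 siRNA in Huh7. The list's median was -0.14 with SAHA in Huh7 and -0.46 with SAHA in HepG2. With HDAC2 siRNA it was -0.12 in Huh7 and 0.04 in HepG2. Under median scaling the SAHA counts were 1 up and 10 down in Huh7 and 0 up and 16 down in HepG2. The list's SAHA medians were then -0.44 in Huh7 and -0.79 in HepG2, beside -0.13 and -0.17 for all genes. That scaling moved all genes downward with SAHA, so the added lower calls are not particular to this list.

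Among 12 GADD45 partners, 4 rose and 5 fell with SAHA in Huh7, 1 rose and 7 fell with SAHA in HepG2, 1 rose and 3 fell with HDAC2 siRNA in Huh7, and 1 rose and 4 fell with it in HepG2. CCNB1 fell by 1.65 with SAHA in Huh7 and fell by 3.70 with SAHA in HepG2 (detected there on 2 of 4 SAHA arrays), and PCNA, the replication clamp, by 1.49 with SAHA in HepG2. CCNB1, PCNA and CDK1 are also on the list of proliferation markers below. Of the p38 kinase genes, MAPK13 fell by 2.23 and MAPK12 by 1.40 with SAHA in Huh7; with HDAC2 siRNA MAPK13 rose by 0.71 in Huh7 and 0.78 in HepG2, MAPK12 fell by 0.54 in Huh7 and MAPK14 by 0.73 in HepG2. The upstream kinase gene MAP2K6 changed in HepG2 by -1.54 with SAHA and by -1.17 with HDAC2 siRNA (detected on 1 and 2 of the 4 treated arrays), and MAP2K3 fell by 1.06 with HDAC2 siRNA in Huh7. For 15 cyclin G partners the counts were 7 up and 2 down, 5 up and 7 down, 4 up and 1 down, and 2 up and 5 down in the same order, with medians of 0.15, -0.26, 0.02 and -0.15. Under median scaling they were 5 up and 6 down, 1 up and 8 down, 3 up and 3 down, and 2 up and 4 down, with medians of -0.04, -0.47, 0.03 and -0.15. Regulatory and catalytic genes of phosphatase 2A went both ways: PPP2CA rose by 0.67 with SAHA and fell by 0.50 with HDAC2 siRNA in Huh7, PPP2R1A rose by 0.84 with HDAC2 siRNA in Huh7, and PPP2R5E, PPP2R5D and PPP2R5A fell in HepG2, the first 2 with SAHA (by 0.81 and 1.12) and the last with HDAC2 siRNA (by 1.10).

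Of 23 immediate early genes, a class to which BTG2 is often assigned, 16 rose and 2 fell with SAHA in Huh7 and 14 rose and 3 fell with SAHA in HepG2, while BTG2 fell in the first and was not called in the second. With HDAC2 siRNA 8 rose and 7 fell in Huh7, and 10 rose and 2 fell in HepG2. FOS rose by 3.32 and 2.30 with SAHA in Huh7 and HepG2 (detected on 3 and 1 of the 4 DMSO arrays), DUSP1 by 1.76 with SAHA in Huh7 and 0.85 with HDAC2 siRNA in HepG2, and ATF3 by 2.85 and 1.31 in the same 2 comparisons. In Huh7 with HDAC2 siRNA, JUNB rose by 1.79 and JUND by 0.76 while MYC fell by 1.39; in HepG2, DUSP5 rose by 2.86 with SAHA and CCN1 by 1.21 with HDAC2 siRNA.

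Markers of proliferation and of other cell types moved with some of these groups. Of 19 proliferation markers, 18 fell and 0 rose with SAHA in Huh7 (median -2.04) and 19 fell with SAHA in HepG2 (median -3.26); with HDAC2 siRNA, 10 fell and 1 rose in Huh7 (-0.33) and 10 fell and 0 rose in HepG2 (-0.35). Under median scaling the siRNA counts were 13 down and 0 up in Huh7 (median -0.45) and 4 down and 1 up in HepG2 (median -0.21). With SAHA in Huh7, the change was -3.53 for TYMS, -3.17 for MCM5 and -2.43 for AURKA, and with SAHA in HepG2 it was -4.83 for CCNA2, -4.54 for CCNB2 and -3.84 for AURKA. With HDAC2 siRNA BIRC5 fell by 0.82 and CCNA2 by 0.76 in Huh7, and CCNA2 by 0.86 in HepG2. All 14 hepatocyte markers fell with SAHA in Huh7 (median -1.62), and their summed intensity was 41722 to 71190 with SAHA against 138533 to 182024 with DMSO. Of 10 leukocyte markers, 6 were detected on all 4 HepG2 arrays with SAHA and 5 with DMSO, with summed intensities of 7220 to 8417 with SAHA against 2220 to 3287 with DMSO; PTPRC was detected on 1 of 32 arrays and ITGAM on 0. In Huh7 that sum was 1581 to 2437 with SAHA against 5044 to 8211 with DMSO. It was 1437 to 2112 with HDAC2 siRNA against 1573 to 2215 with scrambled siRNA in Huh7, and 2326 to 2742 with HDAC2 siRNA against 2306 to 2988 with scrambled siRNA in HepG2. Of 7 fibroblast and 5 endothelial markers, at most 3 of either list were detected on all 4 arrays of a group. Of the 5 fibroblast markers tested, 4 rose and 0 fell with SAHA in Huh7 (median 0.50; 3 rose under median scaling), where the list's summed intensity was 1020 to 1514 with SAHA against 1044 to 1364 with DMSO. Of the 3 endothelial markers tested, 2 rose and 0 fell with SAHA in HepG2 (median 1.46), with summed intensities of 678.4 to 800.2 with SAHA against 627.8 to 840.9 with DMSO. Of the 7 leukocyte markers tested, 5 rose and 0 fell with SAHA in HepG2 (median 2.52), and 3 rose and 2 fell with SAHA in Huh7 (median -0.18). The part of these markers in the changes of the 9 genes was not tested.

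**Figure D4:**
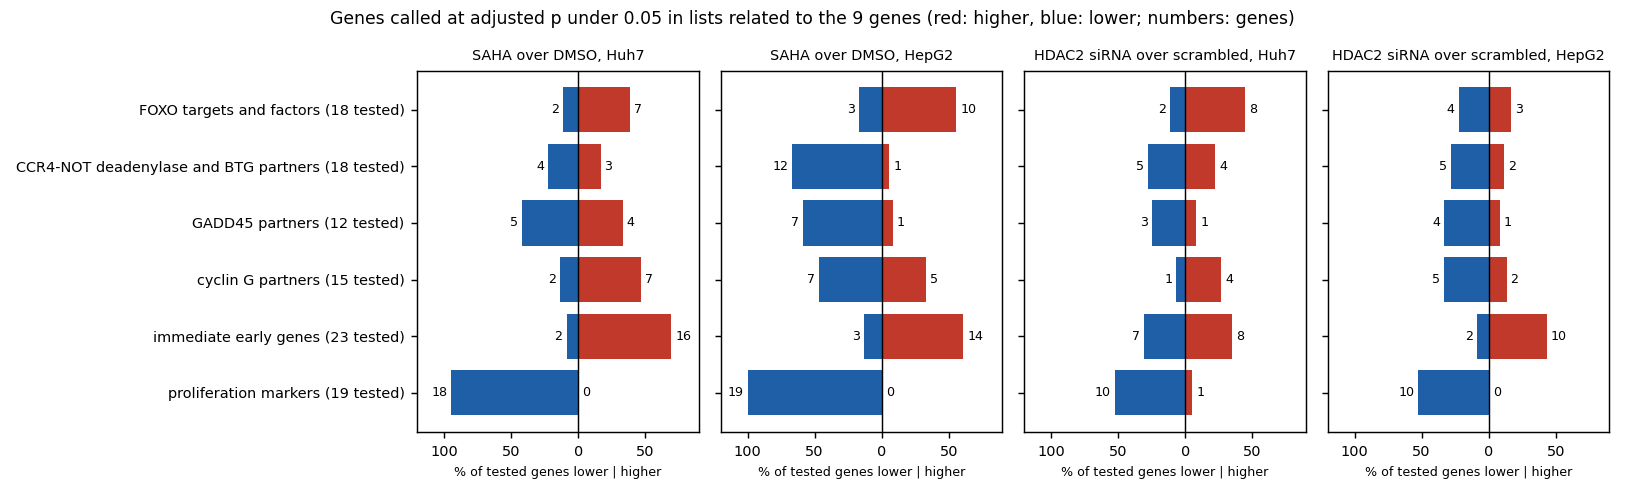
Share of tested genes called lower (left, blue) and higher (right, red) in each list of partners, targets and markers (rows) for the 4 treatment comparisons, with the number of genes beside each bar. Proliferation markers are nearly all lower with SAHA (18 and 19 of 19), and immediate early genes mostly higher with SAHA (16 and 14 of 23). Of all genes, 60.6% were called with SAHA in Huh7 and 54.5% with SAHA in HepG2.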

How the data were processed

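Total RNA of 32 samples (4 per group) was labelled with biotin and hybridised to Illumina expression bead arrays; per the submitters' processing notes, GenomeStudio 2011.1 was used. The authors' deposited table of linear, non-normalized intensities holds, per the file headers, a detection p-value for each probe and array; their second deposited table, judged from its values, holds background-subtracted, quantile-normalized intensities and served as an alternative after a floor of 16 and log2. With limma 3.58.1 in R 4.3.3, normexp background correction guided by the detection p-values (offset 16) was followed by joint quantile normalization of the 32 arrays and log2. Probes detected at p under 0.05 on at least 4 arrays were kept (16121), and the brightest per gene was tested (12973 genes). Of the 24526 probes, 20406 carried a current symbol, 3265 an old one that was updated through the RefSeq gene table and 855 one kept as given. One model with 8 group means (24 residual and 5.66 prior degrees of freedom) gave every contrast, two-sided, with Benjamini-Hochberg adjustment over all genes. On simulated data with 200 genes changed by 1 on the log2 scale in Huh7 with SAHA, 96.5% were recovered and 13 unchanged genes were called. That simulation used normal noise with 1 spread per gene in all groups, skipped normalization and changed far fewer genes than were called here. It checks the code and does not measure error rates on these arrays. The members, gene lists and tests were chosen with earlier results of these data known. Named genes were the members, HDAC2, the 3 genes most similar to each member, and up to 3 called genes per list and comparison with the smallest adjusted p. The labels name no batch. Of the lists and genes, 1 list and 1 further gene are not reported here. Alternatives changed background, offset, scaling, filter, probe choice, samples fitted and the replicate block, or left out 1 array each.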

Additional observations from a re-analysis of the deposited data

Results flagged for a closer look

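Of the 72 groups of 4 arrays (9 genes in 8 groups), 4 held 1 array far from the other 3, and chance alone flags about 1 in 20 groups. BTG1 read 11.50 on Huh7 scrambled siRNA replicate 1, below 11.74 to 11.79 on the others. GADD45A read 10.76 on HepG2 SAHA replicate 4, below 10.99 to 11.02. GADD45B read 10.59 on Huh7 SAHA replicate 2, below 10.87 to 10.92. GADD45G read 5.26 on HepG2 scrambled siRNA replicate 2, above 4.51 to 4.59, with no array of that group above background. Without its lone array, the change in the treatment comparison kept its direction for BTG1 and GADD45B. GADD45A with SAHA in HepG2 was not called. Its change was 0.11 to 0.22 with 1 array left out and reached -0.21 in another alternative run. No direction is given for GADD45G, whose probe was not well above background in either siRNA group of HepG2.

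Treatment changes differed between the lines (HepG2 change minus Huh7 change) by the interaction term of the limma fit. For SAHA the difference was -0.98 for BTG1 (limma adjusted p = 1.09e-06), 0.66 for BTG2 (0.00472), -0.83 for TOB1 (0.00154), -1.94 for GADD45A (3.26e-13) and -1.68 for CCNG2 (5.46e-09). For HDAC2 siRNA it was -0.92 for BTG1 (limma adjusted p = 7.12e-06), 0.62 for BTG2 (0.0114), 1.01 for BTG3 (7.73e-05), 0.87 for GADD45A (6.49e-06), 1.01 for GADD45G (0.00693), 0.52 for CCNG1 (0.0103) and -1.95 for CCNG2 (1.23e-09). The GADD45G value sets a fall in Huh7 against HepG2 groups in which no array detected the probe, so it does not measure a response in HepG2.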

How the results depend on the processing

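No called change of a member turned its direction under any alternative run. The number of genes called with HDAC2 siRNA in HepG2 was 4748, and 2967 when only the groups compared were fitted. That fit had fewer arrays to estimate the spread. Arrays of HepG2 with HDAC2 siRNA were also the least alike within a group (lowest correlations 0.979 to 0.982). The part of either in this drop was not tested. With 1 array left out, the number was 4271 to 4863. The 5 members called between scrambled siRNA and DMSO in HepG2 became 3 when each array was scaled to one median, which also moved the median of all genes with SAHA to -0.13 in Huh7 and -0.17 in HepG2; 39.1% of the calls were then higher in Huh7 and 32.3% in HepG2, beside 52.03% and 49.4% otherwise. Leaving out 1 array gave 7565 to 7657 genes called with SAHA in Huh7 and 6701 to 6796 with SAHA in HepG2. With HDAC2 siRNA it gave 5453 to 5692 in Huh7 and 4271 to 4863 in HepG2. The counts of members called were then 6 to 7 with SAHA in Huh7 and 4 to 5 with SAHA in HepG2. With HDAC2 siRNA they were 7 to 8 in Huh7 and 4 to 6 in HepG2. Deviations of same-numbered arrays correlated at -0.14 to 0.26, and 4 of 16 arrays correlated best with their own number, so the numbers were not taken to pair arrays. With the replicate block, those counts were 7, 4, 8 and 6 and the counts of all genes 7812, 7036, 5764 and 4595; the replicate block passed GADD45B with HDAC2 siRNA in Huh7 (limma adjusted p = 0.022), CCNG2 with it in HepG2 (0.0453) and the GADD45B line difference of SAHA (0.0185), and lost CCNG1 with it in HepG2 (0.0727). Without background correction that GADD45B line difference was -0.62 (limma adjusted p = 0.000187). The block was not run between lines or control groups, nor normalization within a line between lines, and GADD45G gave no value among genes detected on all arrays. Without background correction, called changes shrank by over 1.5 times for several low-signal genes and kept their call, among them BTG3 with SAHA in HepG2 (0.36) and with HDAC2 siRNA in Huh7 (-0.27), TOB1 with HDAC2 siRNA in Huh7 (0.43) and GADD45B with it in HepG2 (0.26). Values near background, as for GADD45G in HepG2, are bounds at best.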
